A study of Mus musculus with 12 samples.

Results

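The interleukin-6 family is a group of cytokines that signal through receptor complexes containing gp130, the product of Il6st. The genes examined were chosen by symbol and were the ligands Il6, Lif, Osm and Il11, the receptors Il6ra, Il6st, Lifr and Osmr, and the downstream genes Socs3 and Stat3, 10 of the 54833 genes counted. Their transcripts were followed in the perihematomal caudate putamen of young and aged mice 24 h after collagenase-induced ICH or sham surgery. Ligand binding brings gp130 together with a ligand-specific receptor, JAK kinases bound to the receptors phosphorylate STAT3, and SOCS3, whose gene STAT3 activates, acts back on the receptor complex as an inhibitor. IL-6 and IL-11 engage gp130 through receptors of their own, LIF acts through LIFR with gp130, and mouse OSM acts chiefly through OSMR with gp130.

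All mice were wild-type male C57BL/6, young at 8–10 weeks or aged at 20–22 months, and received type IV collagenase or saline. Each of the 4 groups had 3 samples, and each sample pooled tissue from 2 or 3 mice, so the spread within a group was a spread between pools. Counts per sample summed to between 28410896 (aged ICH replicate 2) and 37785160 (young sham replicate 1). Levels are given as CPM (counts per M counts of a library) after TMM scaling when a gene was compared between samples, and as FPKM (fragments scaled to library size and to a kilobase of transcript) when genes were compared with each other. Genes were compared with edgeR in a single model of all 12 samples after a filter on low counts that 21495 genes passed. A differentially expressed gene (DEG) had a fold change (FC) over 1.5 or under 0.67 with an unadjusted *P* under 0.05, equal to a log2FC over 0.58 or under -0.58. Adjusted *P* values are those of edgeR after Benjamini-Hochberg adjustment over all tested genes. Log2FC is given ± its standard error, and levels as mean ± SD of 3 samples.

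The tissue carried striatal transcripts, as all 8 markers of striatal neurons were counted in all 12 samples, with Ppp1r1b the most abundant. Their summed level was 2154, 1325 and 1245 CPM in young sham, 928, 366 and 1324 in young ICH, 1609.8, 1968 and 1064 in aged sham and 249, 1497 and 601 in aged ICH (replicates 1 to 3 in each group). Aged ICH replicate 1 and young ICH replicate 2 stood lowest. Choroid plexus markers, 5 genes led by Ttr, summed to 52.3, 9.39 and 4042 CPM in young ICH and 1546, 1959.6 and 39.3 in aged ICH, against 485, 300.1 and 52.5 in young sham and 65.7, 54.5 and 85.5 in aged sham. Young ICH replicate 3 and aged ICH replicates 1 and 2 therefore held far more choroid plexus transcript than the remaining ICH samples, and pools of the same group were not alike in the tissue they held. Leaving out both samples lowest in striatal markers is reported with the age comparisons, and the part of the choroid plexus transcripts in the results was not tested.

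Il6 encodes the founding ligand of the family. Its counts were 3, 9 and 6 in young sham, 24, 31 and 47 in young ICH, 4, 11 and 14 in aged sham and 115, 69 and 57 in aged ICH, corresponding in the same order to 0.0829 to 0.285, 0.696 to 1.48, 0.132 to 0.419 and 1.79 to 3.21 CPM. Every ICH sample lay above every sham sample, and every aged ICH sample lay above every young ICH sample, while the sham groups overlapped. Il6 was upregulated in young ICH vs. young sham (log2FC 2.50 ± 0.49, FC 5.66, edgeR adjusted *P* = 0.00599) and in aged ICH vs. aged sham (2.97 ± 0.44, FC 7.83, edgeR adjusted *P* = 0.00463). As these are bulk samples, more RNA per cell cannot be told apart from more cells that carry the transcript.

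Il11 encodes interleukin-11, which pairs with gp130 through its own receptor. Counts were 9, 14 and 14 in young sham, 51, 86 and 173 in young ICH, 42, 20 and 22 in aged sham and 214, 133 and 182 in aged ICH, corresponding in the same order to 0.249 to 0.462, 1.48 to 5.45, 0.659 to 1.39 and 4.50 to 5.97 CPM. Young ICH samples ranged widely, the highest of them (replicate 3) reaching the aged ICH samples, and all aged sham samples exceeded all young sham samples. Il11 was upregulated in young ICH vs. young sham (log2FC 3.08 ± 0.49, FC 8.48, edgeR adjusted *P* = 0.00261), with 2.49 when young ICH replicate 3 was left out. In aged ICH vs. aged sham the log2FC was 2.57 ± 0.44 (FC 5.94, edgeR adjusted *P* = 0.00631). The 95% confidence intervals of Il11 (2.02 to 4.15 in the young and 1.61 to 3.54 in the aged), Il6 (1.43 to 3.57 and 2.01 to 3.93) and Osm (1.05 to 4.25 and 0.88 to 3.51) overlapped, so these genes are not ranked.

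Lif encodes leukemia inhibitory factor. Its level was 0.912, 1.11 and 0.792 CPM in young sham, 2.18, 3.66 and 6.62 in young ICH, 4.73, 0.944 and 4.97 in aged sham and 8.34, 8.36 and 9.77 in aged ICH. Aged sham samples were split, with replicates 1 and 3 inside the range of young ICH and replicate 2 (28 counts) inside that of young sham, and all aged ICH samples lay above all others. Lif was upregulated in young ICH vs. young sham (log2FC 2.14 ± 0.54, FC 4.40, edgeR adjusted *P* = 0.0192). It met the DEG criterion in aged ICH vs. aged sham (1.31 ± 0.49, FC 2.48) with an edgeR adjusted *P* of 0.0997. Osm, the gene of oncostatin M, had counts of 10, 0 and 4 in young sham, 14, 36 and 36 in young ICH, 9, 8 and 24 in aged sham and 82, 33 and 82 in aged ICH. The count of 0 in young sham replicate 2 still allowed a level of up to 0.0952 CPM, the level at which 3 counts would be expected. ICH samples lay above the sham samples of their own age, although young ICH replicate 1 (0.406 CPM) lay below aged sham replicate 3 (0.719 CPM). Osm was upregulated in young ICH (2.65 ± 0.73, FC 6.29, edgeR adjusted *P* = 0.0274) and aged ICH (2.19 ± 0.60, FC 4.57, edgeR adjusted *P* = 0.0353), each vs. sham of the same age. Its log2FC rested on few counts and became 3.73 in the young without young sham replicate 1 and 2.80 in the aged without aged sham replicate 3. All 10 genes passed the filter, but Il6 and Osm did so largely through their counts after ICH, so their passing is no support for a difference.

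**Figure D1:**
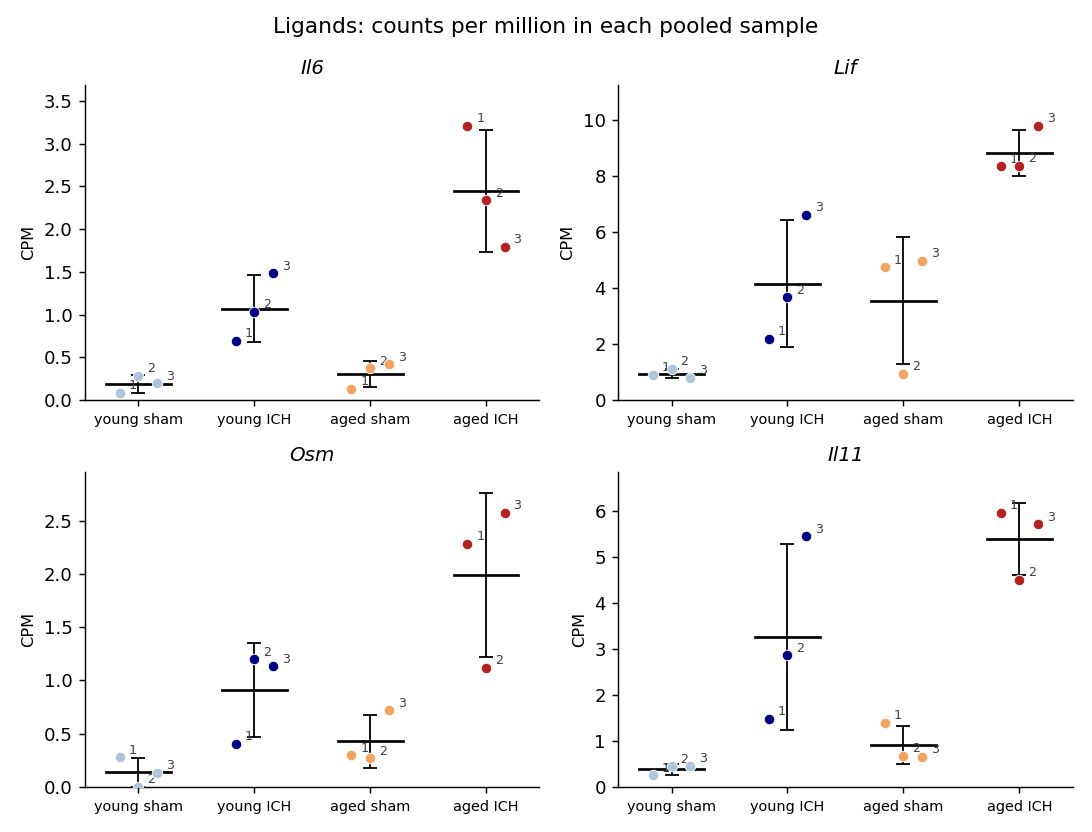
CPM of the 4 ligands in each sample. Points are samples, numbered by replicate, lines are means and bars are SD of 3 samples.

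Osmr encodes the signalling receptor of oncostatin M. Its level was 14.1, 13.8 and 18.5 CPM in young sham, 39.6, 51.5 and 63.3 in young ICH, 23.5, 14.8 and 31.5 in aged sham and 67.1, 58.7 and 63.1 in aged ICH. ICH samples exceeded every sham sample, and aged sham replicates 1 and 3 exceeded all young sham samples whereas replicate 2 fell among them. Osmr was upregulated in young ICH vs. young sham (log2FC 1.73 ± 0.24, FC 3.33, edgeR adjusted *P* = 0.00176) and in aged ICH vs. aged sham (1.43 ± 0.24, FC 2.70, edgeR adjusted *P* = 0.00572). Il6ra, the gene of the IL-6 binding chain, ranged from 8.91 to 9.90 CPM in young sham, 19.2 to 23.0 in young ICH, 10.3 to 12.7 in aged sham and 19.4 to 21.5 in aged ICH. ICH and sham ranges were clear of each other at both ages, and Il6ra was upregulated in young ICH (1.14 ± 0.10, FC 2.21, edgeR adjusted *P* = 0.00043) and in aged ICH (0.85 ± 0.10, FC 1.81, edgeR adjusted *P* = 0.00291), each vs. sham of the same age.

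Il6st, which encodes the shared chain gp130, differed little: 113 to 125 CPM in young sham, 132 to 171 in young ICH, 107 to 127 in aged sham and 131 to 145 in aged ICH. Its log2FC of 0.33 ± 0.10 in young ICH vs. young sham (FC 1.25, edgeR adjusted *P* = 0.0379) and 0.22 ± 0.10 in aged ICH vs. aged sham (edgeR adjusted *P* = 0.155) stayed under the FC criterion. Lifr, whose product pairs with gp130 to bind LIF, ranged from 72.5 to 84.6 CPM in young sham, 66.3 to 73.2 in young ICH, 71.2 to 81.8 in aged sham and 67.4 to 72.4 in aged ICH, with ICH and sham ranges overlapping at each age. Its log2FC was -0.12 ± 0.08 in young ICH vs. young sham (95% confidence interval -0.29 to 0.05, edgeR adjusted *P* = 0.296) and -0.10 ± 0.08 in aged ICH vs. aged sham (-0.27 to 0.07, edgeR adjusted *P* = 0.413), and the lower ends of these intervals lay well inside the FC criterion.

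The balance of Lifr and Osmr therefore moved through Osmr. In FPKM, Lifr exceeded Osmr in every sample, by a factor of 5.78, 6.88 and 4.51 in young sham and 3.46, 5.40 and 2.92 in aged sham, against 2.08, 1.59 and 1.18 in young ICH and 1.13, 1.34 and 1.29 in aged ICH. All ICH samples lay below all sham samples in this ratio.

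Downstream of the receptors, Stat3 encodes the transcription factor and Socs3 its feedback inhibitor. Socs3 was at 8.26, 9.90 and 10.9 CPM in young sham, 31.2, 35.5 and 63.6 in young ICH, 18.3, 6.47 and 25.0 in aged sham and 67.4, 51.4 and 56.1 in aged ICH. Every ICH sample lay above every sham sample, and within aged sham replicate 2 was lower than any young sham sample while replicates 1 and 3 were higher than all of them. Socs3 was upregulated in young ICH (log2FC 2.17 ± 0.40, FC 4.49, edgeR adjusted *P* = 0.0046) and aged ICH (1.81 ± 0.39, FC 3.50, edgeR adjusted *P* = 0.0137), each vs. sham of the same age. Stat3 ranged from 83.8 to 105 CPM in young sham, 174 to 209.9 in young ICH, 80.5 to 134 in aged sham and 193 to 219 in aged ICH, again with no overlap of ICH and sham. Its log2FC was 1.03 ± 0.16 in young ICH vs. young sham (FC 2.04, edgeR adjusted *P* = 0.00224) and 0.93 ± 0.16 in aged ICH vs. aged sham (FC 1.90, edgeR adjusted *P* = 0.00612).

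**Figure D2:**
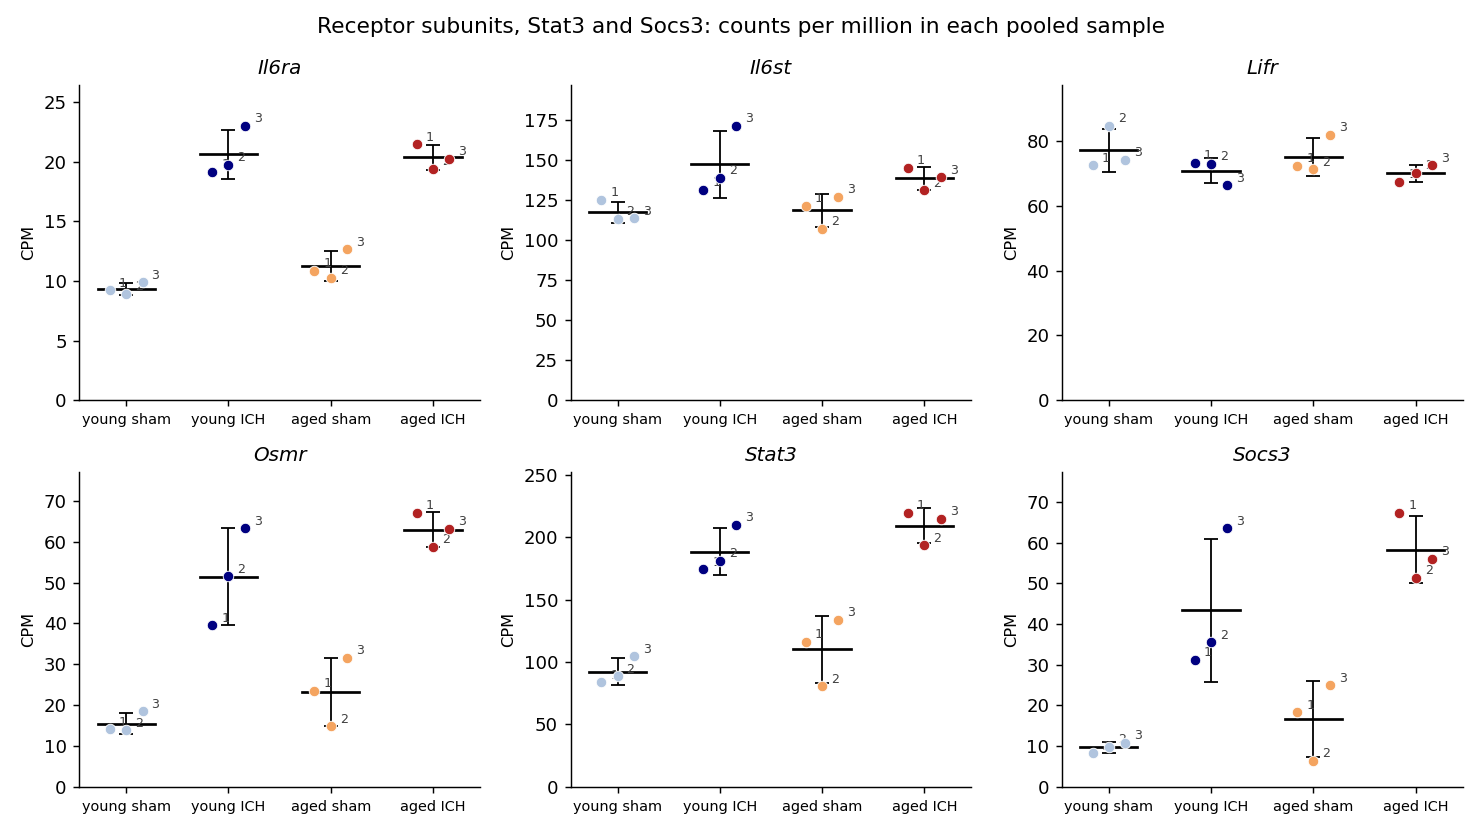
CPM of the 4 receptors, Stat3 and Socs3 in each sample. Points are samples, numbered by replicate, lines are means and bars are SD of 3 samples.

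Compared per length of gene, the most abundant transcripts in young sham were, in FPKM, Il6st (10.1 ± 0.575), Stat3 (9.28 ± 1.13), Lifr (6.85 ± 0.556), Socs3 (3.21 ± 0.446), Osmr (1.22 ± 0.212), Il6ra (1.04 ± 0.0607), Lif (0.206 ± 0.0344), Il11 (0.183 ± 0.0564), Il6 (0.0744 ± 0.0398) and Osm (0.0575 ± 0.0583). In aged ICH the order was Stat3 (22.7 ± 1.43), Socs3 (20.9 ± 2.91), Il6st (12.9 ± 0.624), Lifr (6.73 ± 0.236), Osmr (5.38 ± 0.347), Il11 (2.78 ± 0.396), Il6ra (2.44 ± 0.120), Lif (2.10 ± 0.190), Il6 (1.04 ± 0.305) and Osm (0.908 ± 0.350). The ranges of Il6st and Stat3, Osmr and Il6ra, Lif and Il11, and Il6 and Osm overlapped in young sham, as did those of Stat3 and Socs3, Il11 and Il6ra, and Il6 and Osm in aged ICH. Socs3 was thus at 15.4 ± 6.45 FPKM in young ICH and 5.68 ± 3.25 in aged sham, and the ligand with the highest mean was Il11 after ICH (1.66 ± 1.05 in young ICH) and Lif in aged sham (0.806 ± 0.515).

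Of the 10 genes, 8 were higher and 0 lower as DEGs in young ICH vs. young sham, where the shares of all tested genes were 8.66% and 3.49%. The same 8, and again none in the other direction, were DEGs in aged ICH vs. aged sham, beside 7.24% and 2.82% of all tested genes. The genes outside the criterion were Il6st and Lifr. At an edgeR adjusted *P* under 0.05, 9 were higher in young ICH (9.89% of all tested genes) and 7 in aged ICH (7%). All samples of ICH lay above all samples of sham for 9 of 10 genes at each age, Lifr being the exception, against 18.5% of tested genes in the young and 17.8% in the aged. The median log2FC was 1.94 in young ICH and 1.37 in aged ICH, beside 0.02 and 0.00 over all tested genes. By role, the median was 2.58 and 2.38 for the 4 ligands, 0.73 and 0.54 for the 4 receptors and 1.60 and 1.37 for the 2 downstream genes. The 8 and 8 upregulated genes were kept when any 1 sample was left out.

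Age differences in sham rested on fewer genes. In aged sham vs. young sham, 3 of 10 genes (Lif, Il11 and Osmr) were upregulated, beside 2.82% of all tested genes upregulated and 0.898% downregulated. None was downregulated. By edgeR, 4 had an unadjusted *P* under 0.05 (the same 3 and Il6ra), beside 12.3% of all tested genes, and 0 an adjusted *P* under 0.05, beside 0.102% of all tested genes (22 genes). By DESeq2, 5 had an unadjusted *P* under 0.05 (the same 4 and Osm), beside 11.8% of all genes it tested, and 1 (Lif, 0.0154) an adjusted one, beside 1.37%. The DEGs by DESeq2 were Lif, Il11 and Osm (1.63), Osmr (0.58) falling short of the FC criterion. Aged sham samples all lay above young sham samples for 2 genes, Il11 and Il6ra, beside 9.81% of all tested genes. The median log2FC was 0.66, and 0.01 over all genes.

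The largest age difference in sham was that of Lif (log2FC 1.92 ± 0.54, FC 3.78, edgeR adjusted *P* = 0.223), with aged sham replicate 2 at the level of young sham. Il11 was next among the DEGs (1.24 ± 0.52, FC 2.36, edgeR adjusted *P* = 0.365) and ceased to be a DEG without aged sham replicate 1 (0.80), young sham replicate 1 (0.99) or young sham replicate 2 (1.36). Osmr stood at the edge of the criterion (0.59 ± 0.24, FC 1.51, edgeR adjusted *P* = 0.347) and was lost without aged sham replicate 1 (0.59), aged sham replicate 3 (0.31), young sham replicate 1 (0.53) or young sham replicate 2 (0.52). Osm (1.60 ± 0.79) and Socs3 (0.78 ± 0.40) were not DEGs, but Osm became one without young sham replicate 1 (2.67, against 0.99 without aged sham replicate 3) and Socs3 without aged sham replicate 2 (1.16) or young ICH replicate 3 (0.78). Il6ra was slightly higher (0.27 ± 0.10, edgeR adjusted *P* = 0.324).

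In aged ICH vs. young ICH, 2 of 10 genes (Il6 and Lif) were upregulated and 0 downregulated, beside 2.21% and 1.30% of all tested genes. By edgeR the same 2 had an unadjusted *P* under 0.05, beside 9.54% of all tested genes, and 0 an adjusted one, beside 0.0558% (12 genes). DESeq2 gave 2 and 0, beside 8.94% and 0.922% of all genes it tested. All aged ICH samples lay above all young ICH samples for these 2 genes, beside 6.90% of all tested genes. The median log2FC was 0.36, against -0.00 over all genes. Il6 had a log2FC of 1.20 ± 0.38 (FC 2.29, edgeR adjusted *P* = 0.355) and stayed a DEG whichever sample was left out. Both Il6 and Lif lost the call when aged ICH replicate 1 and young ICH replicate 2, the ICH samples lowest in striatal markers, were left out together, where the log2FC was 0.93 for Il6 and 1.05 for Lif. Lif (1.09 ± 0.48, FC 2.13, edgeR adjusted *P* = 0.509) also lost it without any 1 of aged ICH replicates 1 (1.13), 2 (1.13) or 3 (1.01), young ICH replicates 1 (0.78) or 2 (1.01), or young sham replicates 1 (1.09), 2 (1.09) or 3 (1.09). Il11 (0.73 ± 0.40) and Osm (1.14 ± 0.56) were not DEGs, and became so without young ICH replicate 3 (Il11, 1.32) or aged ICH replicate 2 or young sham replicate 2 (Osm, 1.42 and 1.14).

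**Figure D3:**
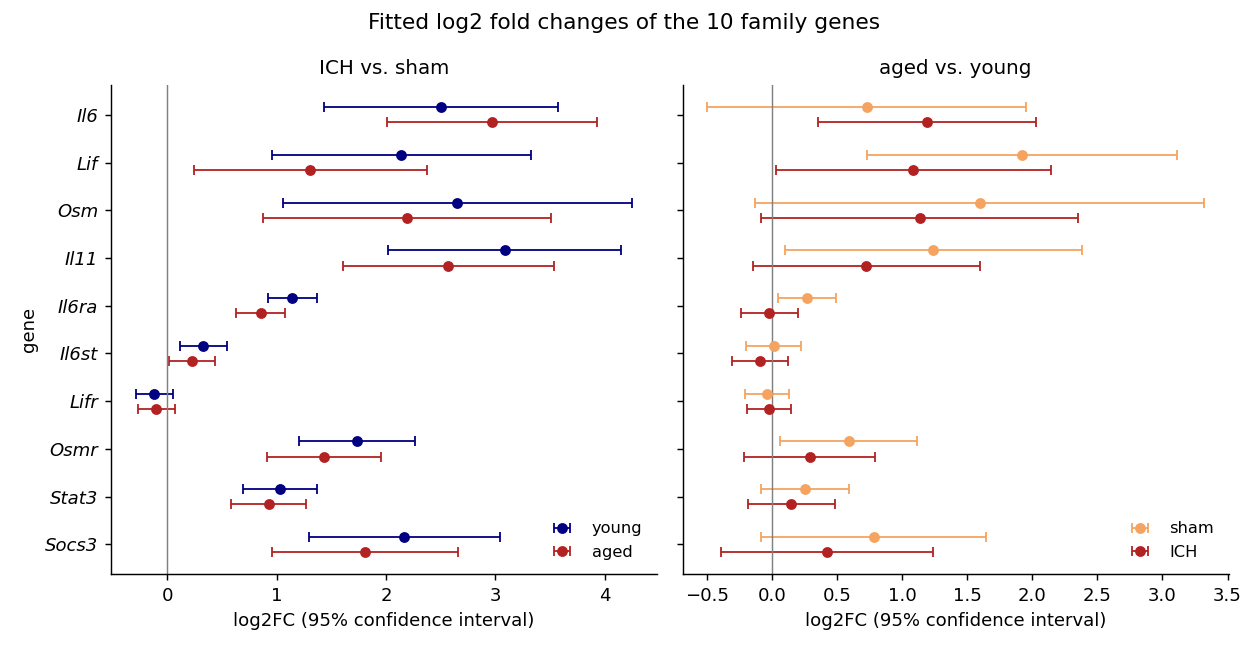
Log2FC of the 10 genes from edgeR with 95% confidence intervals. Left, ICH vs. sham in young and aged mice. Right, aged vs. young in sham and ICH.

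The interaction of age and ICH, the log2FC of aged ICH vs. aged sham minus that of young ICH vs. young sham, was called for 0 of 10 genes, beside 1.56% of all tested genes (336 genes). By edgeR and by DESeq2 alike, 0 of the 10 had an unadjusted *P* under 0.05, beside 2.82% and 2.31% of all genes tested, and 0% of all tested genes had an edgeR adjusted *P* under 0.05. Its median was -0.29, against -0.01 over all genes. The value was -0.83 ± 0.72 for Lif (95% confidence interval -2.41 to 0.75), 0.47 ± 0.70 for Il6 (-1.07 to 2.01), -0.51 ± 0.65 for Il11 (-1.94 to 0.91), -0.46 ± 0.94 for Osm (-2.52 to 1.61), -0.36 ± 0.54 for Socs3 (-1.54 to 0.83), -0.30 ± 0.33 for Osmr (-1.03 to 0.43) and -0.29 ± 0.14 for Il6ra (-0.60 to 0.02). Intervals this wide included FC changes past 1.5 for each of these genes. For Stat3 (-0.10 ± 0.22) the interval reached the criterion, and for Il6st (-0.41 to 0.20) and Lifr (-0.22 to 0.26) it lay inside. Without aged sham replicate 2 the interaction of Lif met it (-1.28). With all samples the edgeR adjusted *P* of Lif was under 0.05 in young ICH and over it in aged ICH, but its responses at the 2 ages were not shown to differ.

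Genes around the family were read beside it. Of 16 described STAT3 targets, 13 were upregulated in young ICH and 13 in aged ICH, each vs. sham of the same age, with a median log2FC of 1.51 and 1.26. Of all tested genes, 8.66% and 7.24% were upregulated in these comparisons. The list was chosen with earlier results of these data known, so the count describes it and does not test STAT3 activity. Of the STAT3 targets that were DEGs, Saa3 had an edgeR adjusted *P* of 0.111 in the young and 0.164 in the aged, and Icam1 had 0.162 in the aged. The others were under 0.05. Among them were Lcn2 (log2FC 3.10 ± 0.52 in young, 2.88 ± 0.52 in aged), Timp1 (2.44 ± 0.35 and 2.40 ± 0.35) and Serpina3n (2.31 ± 0.45 and 1.89 ± 0.44). Bcl6, Hif1a and Junb were outside the criterion at both ages. Between ages, 0 of the 16 were DEGs in sham and 0 in ICH. The shares of all tested genes up- and downregulated between ages were 2.82% and 0.898% in sham and 2.21% and 1.3% in ICH. At shares this low, 0 of 16 says little about the targets. Of 12 genes of kinases, receptor shedding and feedback, Socs1 was upregulated at both ages after ICH (1.22 ± 0.36 and 1.07 ± 0.32).

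Of 8 other ligands of the family 5 were tested, Cntf, Il27 and Il31 having too few counts, and Il31 had 0 counts in all samples. Clcf1 was upregulated after ICH at both ages. Its FC was 5.60 in the young (log2FC 2.49 ± 0.35, edgeR adjusted *P* = 0.00187) and 3.99 in the aged (edgeR adjusted *P* = 0.00597). Of 5 other receptors 3 were tested, and Il27ra was a DEG at both ages (1.32 ± 0.26, edgeR adjusted *P* = 0.00626 in the young, and 0.84, edgeR adjusted *P* = 0.0669 in the aged). It was also a DEG, lower, in aged ICH vs. young ICH (-0.79 ± 0.25, edgeR adjusted *P* = 0.352).

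Markers of infiltrating and resident cells were summed per sample. A large part of the neutrophil sum was Csf3r (mean 14.6 CPM over the 12 samples). Likewise, Fn1 (mean 162 CPM) made up a large part of the monocyte and macrophage sum. Neutrophil markers (8 of 10 tested, Csf3r the most abundant) reached 19.8, 36.2 and 31.8 CPM in young ICH and 52.9, 47.1 and 37.0 in aged ICH, against 10.3, 12.7 and 10.2 in young sham and 14.6, 16.2 and 26.1 in aged sham, and 6 of 8 were upregulated after ICH at each age. Between ages, 6 of 8 met the DEG criterion in aged sham vs. young sham and 4 of 8 in aged ICH vs. young ICH, 0 of them at an edgeR adjusted *P* under 0.05, and 2 of 8 (Mmp8 and Retnlg) met it in the interaction. Retnlg, Ltf, Mmp8 and Ngp had at most 4 counts in any young sham sample, so their folds over that group are poorly determined. Markers of monocytes and macrophages (8 of 8, Fn1 the most abundant) reached 265, 253 and 311 CPM in young ICH and 335, 248 and 325 in aged ICH, against 121, 108 and 117 in young sham and 125, 84.7 and 173 in aged sham, with 7 of 8 upregulated at each age, 3 of 8 in aged sham vs. young sham and 1 of 8 in aged ICH vs. young ICH. Endothelial markers (6 of 6, Flt1 the most abundant) had 4 upregulated in young ICH and 2 in aged ICH. None was called in aged ICH vs. young ICH or in the interaction.

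Microglial markers (7 of 7, Csf1r the most abundant) had 2 downregulated after ICH at each age, their sums lying at 428, 370.0 and 348 CPM in young sham, 389.7, 368 and 411 in young ICH, 404, 396 and 387 in aged sham and 412, 400.0 and 374 in aged ICH. Oligodendrocyte markers (6 of 6, Mbp the most abundant) summed to 8062, 4712 and 6401, 6707, 5522 and 7183, 5159, 6733 and 6518 and 4683, 4813 and 4131 CPM in the same order, with 0 downregulated in young ICH, 3 in aged ICH and 2 in the interaction. T cell markers (6 of 7 tested, Lck the most abundant) had 5 upregulated in young ICH, 0 in aged ICH and 0 called in the interaction. At an edgeR adjusted *P* under 0.05, 1 of them was higher in young ICH and 0 in aged ICH. The T cell markers summed to 17.3, 3.63 and 5.04 CPM in young ICH, replicate 1 standing apart, and 3.99, 3.83 and 4.49 in aged ICH, against 3.43, 1.78 and 4.19 in young sham and 2.05, 2.93 and 2.37 in aged sham. Red blood cell markers (5 of 5, Hbb-bs the most abundant) had 4 upregulated in young ICH, 1 in aged ICH and 3 in aged sham vs. young sham, with 2 lower in the interaction. Their sums were 29.0, 121 and 52.2 CPM in young ICH and 29.8, 24.3 and 82.0 in aged ICH, against 5.20, 22.4 and 7.36 in young sham and 39.5, 27.8 and 36.8 in aged sham. No marker on these lists was at 0 in all samples. Their part in the result was not tested, and the cells that carried the ligand transcripts cannot be told from these data.

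Over the 12 samples Osmr, Socs3 and Stat3 varied together (Pearson *r* = 0.99 for each pair), and Lifr was negatively correlated with each of the other 9 genes. Among all tested genes the closest to Osmr was Atf3 (*r* = 0.993), to Socs3 Msn (0.994), to Stat3 Tnfrsf1a (0.995), to Il6ra Rhoc (0.993), to Il11 Ifnar2 (0.972), to Il6 Kdm6b (0.964, followed by S100a8 at 0.963), to Lif Pik3r5 (0.957) and to Osm Ccdc88b (0.957). The samples span sham and ICH, so genes that differ between them score high, and *r* passed 0.9 with 782 other genes for Stat3 and 177 for Il6.

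The genes lie in GENCODE vM21 on GRCm38 as protein-coding genes, and 2 pairs are neighbours. Osm (ENSMUSG00000058755, chr11:4236420-4241026) and Lif (ENSMUSG00000034394, chr11:4257557-4272514) lie on the plus strand 16530 bases apart, and Osmr (ENSMUSG00000022146, chr15:6813577-6874969, minus strand) and Lifr (ENSMUSG00000054263, chr15:7090614-7197489, plus strand) lie 215644 bases apart, with 0 protein-coding genes between them in either case. Osm and Lif were both upregulated after ICH, whereas of Osmr and Lifr only Osmr was. On the opposite strand, exons of Il6ra overlap Gm42809 over 242 of 8642 exon bases (2.80%) and exons of Stat3 overlap Stat5a over 72 of 9527 (0.756%). Stat5a was itself upregulated in young ICH (log2FC 1.08) and aged ICH (0.77), each vs. sham of the same age. Over the whole gene, Stat5a had 89 to 230 counts per sample and Gm42809 had 0 to 3. The part of reads from the shared bases was not tested. Exons of the other 8 genes overlap no other gene, and the strand setting of the counting was not given.

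Promoter sequence, taken from RefSeq starts on the mouse assembly GRCm38.p6 as 300 bases (250 before and 50 after the start), was available for 9 of the 10 genes in 11 windows. Both strands were searched for the STAT motif TTCNNNGAA, the AP-1 motif TGANTCA and the NF-kB motif GGANTTTCC, where N is any base. A match to AP-1 was present in 4 genes (Il6, Lif, Il11 and Osmr), to NF-kB in 1 (Il6) and to STAT in 1 (Socs3), while 7.81%, 1.25% and 8.30% of all 32851 promoters carried AP-1, NF-kB and STAT. Matched windows were Il6 (chr5:30012864-30013163, plus strand), Lif (chr11:4257318-4257617, plus strand), Il11 (chr7:4778092-4778391, minus strand), Osmr (chr15:6874264-6874563, minus strand) and Socs3 (chr11:117969317-117969616, minus strand). The Il11, Osmr and Socs3 windows with a match lie inside the annotated genes, the Il11 window at the outer end of its gene had no match, and no matches overlapped. A match describes the sequence and does not show that the factor binds. Capitals mark the matches in the sequences, which read on the strand of the gene and are shown for the 5 genes with a match. These were upregulated after ICH, as were Il6ra and Stat3, which had none:
Il6: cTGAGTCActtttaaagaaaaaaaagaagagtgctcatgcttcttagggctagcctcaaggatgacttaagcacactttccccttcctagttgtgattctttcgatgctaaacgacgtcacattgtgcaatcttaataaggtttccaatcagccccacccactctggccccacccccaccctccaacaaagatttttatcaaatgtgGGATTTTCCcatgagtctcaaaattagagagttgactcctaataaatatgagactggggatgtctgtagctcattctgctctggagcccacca
Lif: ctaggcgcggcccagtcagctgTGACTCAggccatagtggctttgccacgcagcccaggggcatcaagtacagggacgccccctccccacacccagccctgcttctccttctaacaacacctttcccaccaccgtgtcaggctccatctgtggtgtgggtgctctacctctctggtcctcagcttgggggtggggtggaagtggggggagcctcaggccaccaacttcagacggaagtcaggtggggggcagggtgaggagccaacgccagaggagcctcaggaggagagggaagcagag
Il11: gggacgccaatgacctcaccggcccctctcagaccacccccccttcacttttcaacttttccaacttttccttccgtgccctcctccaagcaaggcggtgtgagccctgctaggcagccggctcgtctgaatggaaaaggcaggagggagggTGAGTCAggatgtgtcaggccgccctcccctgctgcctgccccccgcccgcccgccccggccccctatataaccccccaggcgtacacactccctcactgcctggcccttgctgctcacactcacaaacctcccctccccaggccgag
Osmr: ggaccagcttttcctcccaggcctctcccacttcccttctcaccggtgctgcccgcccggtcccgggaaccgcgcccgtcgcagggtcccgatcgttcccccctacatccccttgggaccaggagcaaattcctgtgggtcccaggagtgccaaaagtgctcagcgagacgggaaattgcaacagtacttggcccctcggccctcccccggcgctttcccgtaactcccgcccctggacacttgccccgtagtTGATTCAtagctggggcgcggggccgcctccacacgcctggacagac
Socs3: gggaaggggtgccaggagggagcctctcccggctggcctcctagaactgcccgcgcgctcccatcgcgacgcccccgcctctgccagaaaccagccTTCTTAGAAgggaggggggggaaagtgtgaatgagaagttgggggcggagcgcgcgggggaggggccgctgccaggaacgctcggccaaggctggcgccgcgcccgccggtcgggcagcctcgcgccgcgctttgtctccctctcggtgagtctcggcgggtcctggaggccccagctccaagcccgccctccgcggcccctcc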

How the data were processed

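The authors deposited raw count and FPKM columns for 54833 genes in 12 samples, from reads the submitters aligned with HISAT2 to GRCm38.p6 and counted with featureCounts of Subread. All columns were mapped to samples (0 unmapped). No source used here gives the strand setting of the counting. The count columns entered edgeR 4.0.16 (limma 3.58.1, R 4.3.3) with TMM scaling, filterByExpr at a minimum count of 10 and a quasi-likelihood model of 4 groups, and FPKM values were used as deposited. The 10 genes were matched by symbol, and they and the lists were chosen with earlier results of these data known. Samples that share a replicate number were not paired. Alternatives were DESeq2 1.42.0, DESeq2 size factors, no filter, only the groups compared, a replicate block, adjusted P in place of the criterion, and leaving out each sample. Leaving out both ICH samples lowest in striatal markers was added after seeing the data. Protein motifs were not run, as no protein table was available. Results for some listed genes are not reported here.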

Additional observations from a re-analysis of the deposited data

How the results depend on the processing

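The members upregulated in ICH vs. sham stayed at 8 and 8, and those downregulated at 0 and 0, in every alternative that kept the DEG criterion, and an edgeR adjusted *P* under 0.05 gave 9 and 7. Leaving out 1 sample gave 6–9 in the young and 5–7 in the aged at that threshold. Members called between aged sham and young sham went from 3 to 5 with no filter, to 0 by adjusted *P*, to 1–4 without 1 sample, and to 2 without both ICH samples lowest in striatal markers (Il11 lost, 1.24). Between aged ICH and young ICH, 2 became 4 with no filter, 3 with only the groups compared (Osm added, 1.13), 0 by adjusted *P*, 1–3 without 1 sample and 0 without both ICH samples lowest in striatal markers. The interaction had 0–1 members without 1 sample, the 1 being Lif (-1.28) without aged sham replicate 2. With a replicate block the counts were 8, 8, 2, 2 and 0, and DEGs over all genes went from 1861 up and 751 down to 1785 and 712 in the young, from 1557 and 607 to 1522 and 575 in the aged, and from 799, 756 and 336 to 757, 729 and 325 in the other comparisons. Of 18 same-numbered pairs, 5 had *r* over 0.1, and 1 of 12 samples correlated best with its own number, so the numbers do not pair samples. Direction turned without 1 sample, with log2FC ranges of -0.0636 to 0.00867 for Lifr (0.0329 without both low samples), -0.0692 to 0.0666 for Il6ra and -0.16 to 0.0342 for Il6st in aged ICH vs. young ICH, and -0.0389 to 0.0826 for Il6st and -0.10 to 0.0341 for Lifr in aged sham vs. young sham. For the interaction the ranges were -0.0522 to 0.0851 for Lifr, -1.53 to 0.15 for Osm, -0.74 to 0.0649 for Socs3, -0.28 to 0.0611 for Stat3, -0.87 to 0.0779 for Il11 and -0.18 to 0.0196 for Il6st. In the aged sham vs. young sham comparison Osmr was 0.58 with DESeq2 size factors, 0.58 with DESeq2 and 0.56 with the replicate block, and was then not a DEG. Over all genes, no filter gave 1269, 1280 and 787 for both age comparisons and the interaction, adjusted *P* gave 22, 12 and 0 with 1985 and 1323 genes lower after ICH, leaving out 1 sample gave 451–1098 downregulated in the aged and 314–609 in the interaction, and leaving out both low samples gave 509 in the interaction. In young ICH vs. young sham, Osm was 2.10 to 3.73 without 1 sample. The cause was not tested.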
